A study of Mus musculus with 5 samples.

Results

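The classical MHC class I presentation pathway and its immunoproteasome were followed by 10 genes, H2-K1, H2-D1, B2m, Tap1, Tap2, Tapbp, Psmb8, Psmb9, Psmb10 and Psme1. All probe sets whose platform annotation listed one of these symbols were taken, which gave 29 of the 22626 non-control probe sets on the array, for 10 of 12393 annotated genes. Of the 29, 26 listed 1 symbol and 3 listed several. A probe set is a group of short oligonucleotides that together read 1 transcript or several similar ones.

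MHC class I molecules show peptides from inside the cell to CD8 T cells, and endothelial cells carry them on their surface. Proteasomes cut proteins into peptides, the TAP transporter carries these into the endoplasmic reticulum, and tapasin holds the transporter beside empty class I molecules until a peptide binds. Interferon-gamma raises most genes of the pathway and exchanges the catalytic subunits of the standard proteasome for those of the immunoproteasome.

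The irradiated group held 2 arrays of cells taken at day 4 after SL-TBI, a sublethal total body irradiation of 550 cGy from a cesium source, given without hematopoietic rescue. The untreated group, called day 0, held 3 arrays. All mice were female C57BL/6J animals of 6 to 8 weeks. Thymus cells were depleted of CD45+ blood cells on magnetic columns and sorted as CD45- EpCAM- VE-Cad+ endothelial cells, which line the vessels. Several mice were pooled for every array, so the replicates were pools and p-values measured the spread between these 5 pools. The labels called the day 4 cells CD45- thymic stromal cells and the day 0 cells thymic endothelial cells, although the sort was described alike for both. The comparison asked how expression in thymic endothelial cells differed after irradiation. In RNA of pooled cells, fewer cells of a type and less RNA per cell cannot be told apart.

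The values were log2 intensities processed by GCRMA, and a difference of 1 on this scale is 2-fold. Array medians lay between 5.29 and 5.30 at day 4 and between 5.26 and 5.27 at day 0. Cdh5, the gene of the VE-cadherin used in the sort, read 11.38 and 11.40 at day 4, against 11.57, 11.51 and 11.64 at day 0 (log2 change -0.18, limma adjusted p = 0.337). For its dimmer probe set 1422047_at the groups overlapped (log2 change -0.027, limma adjusted p = 0.944). Pecam1, another endothelial gene, had a log2 change of 0.14 (adjusted p = 0.629) and Epcam, the epithelial marker the sort left out, one of -0.48 (adjusted p = 0.582). That of Ptprc, the gene of CD45, was 0.0049 (adjusted p = 0.994), and -0.020 after median centring and -0.015 after quantile normalization. Ptprc read 6.68 and 6.38 at day 4, against 6.86, 6.08 and 6.63 at day 0. Epcam read 7.17 and 5.67 at day 4, against 7.27, 6.59 and 6.83 at day 0. As a measure of RNA quality, the actin controls differed between their 3′ and 5′ probe sets by 1.35 and 1.39 at day 4, against 1.59, 1.65 and 1.43 at day 0. The Gapdh controls differed by 0.82 and 0.83 at day 4, against 0.96, 0.90 and 0.93 at day 0. Both differences were smaller on each day 4 array than on every day 0 array, so RNA quality cannot be told apart from treatment. Its part in the changes below was not tested. Of 15065 probe sets tested, 108 rose (0.717%) and 102 fell (0.677%) at an adjusted p under 0.05. These 210 calls became 14 when day 4 replicate 1 was left out, 26 when day 0 replicate 3 was and 126 when day 0 replicate 1 was. Their split also rested on single arrays, with 140 higher and 38 lower when day 4 replicate 2 was left out and 52 higher and 111 lower when day 0 replicate 2 was.

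No class I or immunoproteasome probe set passed that threshold in either direction. The immunoproteasome subunits Psmb8, Psmb9 and Psmb10, the activator Psme1 and the loading factor Tapbp read lower on both day 4 arrays than on every day 0 array, with log2 changes between -0.52 and -0.24 for their leading probe sets. The heavy chain H2-D1 read slightly higher, B2m was close to 0, and the Tap transporter genes showed no common direction. Of the 29 probe sets, 25 passed the level filter, a log2 value above 4 on at least 2 arrays. Their median log2 change was 0.0093, beside -0.0044 over all probe sets tested, and 13 were higher and 12 lower. Of the 25, 14 were heavy chain probe sets that can share signal, and with 1 probe set per gene the median log2 change of the 10 genes was -0.21.

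At an unadjusted p under 0.05 stood 5 of the 25 (20%), beside 19.4% of all probe sets tested. All 5 (Psmb8, Psmb9, Psmb10, Psme1 and the leading Tapbp probe set) were lower at day 4, where 9.34% of all probe sets tested were lower by that rule. Both day 4 arrays lay below all day 0 arrays for 6 of the 25 (24%), beside 20.7% of all probe sets tested, and above them for 5 (20%), beside 18.9% of all. The shares without overlap, and the share past the unadjusted threshold in either direction, were thus near the background.

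**Figure D1:**
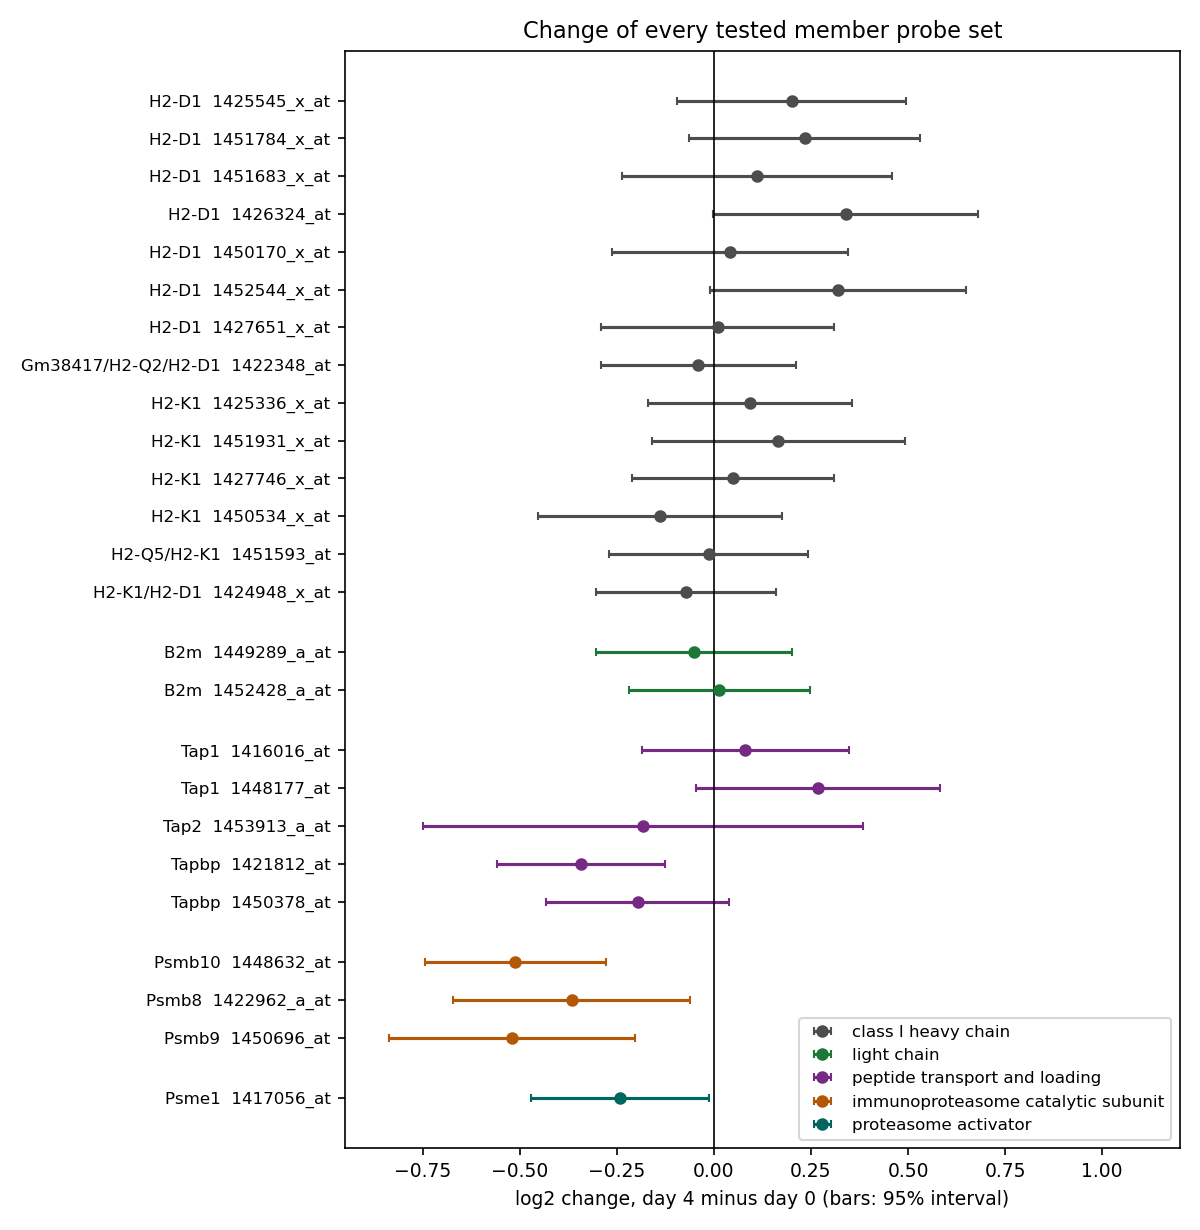
Log2 change, day 4 minus day 0, of the 25 class I and immunoproteasome probe sets tested, with 95% intervals from the limma fit and a line at 0, coloured by role. The intervals of Psmb8, Psmb9, Psmb10, Psme1 and the leading Tapbp probe set lay below 0, and those of all heavy chain and B2m probe sets spanned it.

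The 250 bases before the transcription start of 6 members are printed to show which regulatory motifs the promoters of the pathway share and which they do not. They come from RefSeq on build GRCm38.p6, 5′ to 3′ on the gene's strand. A table of starts matched 9 of the 10 members, all but Tap2. The 6 motifs were searched on both strands, and their matches are in capitals, joined where they overlap. They were GAAANNGAAA (interferon-stimulated response element, in 3.04% of 27025 promoters of this length), TTTCACTT (core of the class I interferon element, 1.44%), TTCNNNGAA (gamma-activated site, 7.18%), GGGANNNNCC (NF-kB site, 17.3%), TGACG (half-site of the X2 box, 17.9%) and CCAAT (Y box, 34.5%). A match is a match of letters and not a site of binding.
H2-K1, chr17:34000348-34000597, minus strand: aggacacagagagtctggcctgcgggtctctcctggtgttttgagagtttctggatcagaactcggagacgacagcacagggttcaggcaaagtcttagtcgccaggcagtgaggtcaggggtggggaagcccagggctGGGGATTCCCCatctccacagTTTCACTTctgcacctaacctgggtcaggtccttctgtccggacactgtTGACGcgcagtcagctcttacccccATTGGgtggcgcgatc
H2-D1, chr17:35262844-35263093, plus strand: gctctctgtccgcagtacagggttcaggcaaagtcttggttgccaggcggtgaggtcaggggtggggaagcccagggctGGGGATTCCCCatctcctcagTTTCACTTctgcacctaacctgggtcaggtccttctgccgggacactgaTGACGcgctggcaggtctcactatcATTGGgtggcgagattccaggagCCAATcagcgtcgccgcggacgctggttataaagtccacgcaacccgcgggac
B2m, chr2:122147437-122147686, plus strand: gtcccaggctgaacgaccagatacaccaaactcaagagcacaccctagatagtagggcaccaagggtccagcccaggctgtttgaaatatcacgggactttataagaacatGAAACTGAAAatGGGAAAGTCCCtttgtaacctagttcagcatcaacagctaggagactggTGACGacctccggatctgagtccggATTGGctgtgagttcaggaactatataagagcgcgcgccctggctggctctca
Tap1, chr17:34187306-34187555, plus strand: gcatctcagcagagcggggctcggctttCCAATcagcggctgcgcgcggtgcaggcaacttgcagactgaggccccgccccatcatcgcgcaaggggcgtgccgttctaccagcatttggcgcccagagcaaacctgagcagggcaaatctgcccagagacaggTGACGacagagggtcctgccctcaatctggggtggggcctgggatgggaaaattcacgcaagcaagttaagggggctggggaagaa
Psmb8, chr17:34197945-34198194, plus strand: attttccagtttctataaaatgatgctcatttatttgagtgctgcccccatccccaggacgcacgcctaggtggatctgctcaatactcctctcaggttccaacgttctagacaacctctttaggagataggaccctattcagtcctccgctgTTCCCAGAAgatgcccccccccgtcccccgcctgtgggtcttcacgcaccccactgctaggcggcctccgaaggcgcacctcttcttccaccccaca
Psmb10, chr8:105938393-105938642, minus strand: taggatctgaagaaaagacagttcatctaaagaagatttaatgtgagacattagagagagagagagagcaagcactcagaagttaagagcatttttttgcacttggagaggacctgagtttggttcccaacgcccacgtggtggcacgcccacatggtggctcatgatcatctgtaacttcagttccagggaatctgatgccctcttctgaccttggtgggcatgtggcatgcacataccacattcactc

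H2-K1, H2-D1 and B2m each held 4 of the 6 motif kinds. The heavy chain genes carried the class I interferon core and B2m the interferon-stimulated response element, each beside an NF-kB match, an X2 half-site and a Y box. Where the H2-K1 and H2-D1 windows could be aligned, 166 of 190 bases (87.4%) were identical. The Tap1 window overlaps that of Psmb9, which is read from the opposite strand: their starts lie 225 bases apart, and their windows share 225 bases with 1 X2 half-site and 1 Y box. Psmb8 held a gamma-activated site and Tapbp a Y box, while none of the 6 motifs was found in the windows of Psmb10 and Psme1. RefSeq gave 2 starts for H2-K1, of which the first in the table was used.

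H2-D1 and H2-K1 encode the class I heavy chains, the part of the molecule that binds the peptide and the T cell receptor. The leading H2-D1 probe set, the one with the highest mean (1425545_x_at), read 12.60 and 12.59 at day 4, against 12.32, 12.29 and 12.58 at day 0. Both day 4 arrays thus lay above the day 0 arrays, with day 0 replicate 3 close to them. Its log2 change was 0.20 ± 0.121 (SE; 95% interval -0.094 to 0.49), with an adjusted p of 0.407 in limma, short of the threshold. Probe set 1426324_at, which lists H2-D1 as its only symbol and lacks the _x_at suffix, read 8.82 and 8.83 at day 4, against 8.36, 8.36 and 8.73 at day 0. Its log2 change of 0.34 ± 0.140 (95% interval -0.0027 to 0.68) had an adjusted p of 0.261 in limma. Without day 0 replicate 3 it was 0.46 (adjusted p = 0.202).

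All 7 tested H2-D1 probe sets with 1 symbol read higher at day 4 in the mean, by 0.0093 to 0.34 with a median of 0.20, and 4 of them did so without overlap between the groups, as 18.9% of all probe sets tested did. The smallest of the 7 changes, that of 1427651_x_at, turned to -0.016 after median centring of the arrays and to -0.00019 after quantile normalization. Probe set 1451784_x_at, for example, read 12.55 and 12.52 at day 4, against 12.23, 12.19 and 12.49 at day 0 (log2 change 0.23, limma adjusted p = 0.349), and 1452544_x_at had a log2 change of 0.32 (adjusted p = 0.268). The groups overlapped for 1451683_x_at (0.11), 1450170_x_at (0.042) and 1427651_x_at, and the first ranged from 0.023 to 0.22 with single arrays left out. Of the 7, 6 carry the suffix _x_at, which in Affymetrix naming marks probes that can also match other transcripts, so H2-D1 and its close relatives may share signal and the 7 are not independent readings. Probe sets 1425614_x_at, at means of 3.10 at day 4 and 3.14 at day 0, and 1451934_at, at 2.56 and 2.59 in the same order, stayed under the filter and were not tested.

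The leading H2-K1 probe set (1425336_x_at) read 12.64 and 12.79 at day 4, against 12.60, 12.55 and 12.73 at day 0. The groups overlapped, with a log2 change of 0.093 ± 0.107 (95% interval -0.17 to 0.35; limma adjusted p = 0.663). It lay between 0.017 and 0.17 when single arrays were left out. The other H2-K1 probe sets with 1 symbol gave 0.17 (1451931_x_at), 0.049 (1427746_x_at) and -0.14 (1450534_x_at), and the groups overlapped for each. With single arrays left out, 1450534_x_at ranged from -0.26 to -0.022. All 4 carry the _x_at suffix, so none reads H2-K1 alone by its name.

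Probe set 1424948_x_at, annotated to both heavy chains, had a log2 change of -0.071 (95% interval -0.30 to 0.16). The other probe sets with several symbols were 1451593_at (H2-Q5 and H2-K1), with -0.014, and 1422348_at (Gm38417, H2-Q2 and H2-D1), with -0.040. All 3 showed overlapping groups and limma adjusted p-values of at least 0.709. Among heavy chain probe sets with a day 0 mean above 8, 7 of 8 were higher at day 4, with a median log2 change of 0.14, and among those at or below 8, 3 of 6 were higher, with a median of -0.0022. Over all probe sets tested, 7413 of 15065 were higher. Most of the 8 carry the _x_at suffix and can share signal, so they are not independent readings.

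B2m encodes beta-2-microglobulin, the light chain that every class I heavy chain needs to reach the cell surface. Probe set 1449289_a_at read 13.63 and 13.48 at day 4, against 13.57, 13.56 and 13.70 at day 0. Probe set 1452428_a_at read 13.55 and 13.48 at day 4, against 13.47, 13.45 and 13.57 at day 0. The groups overlapped on both, and the log2 changes were -0.051 (95% interval -0.30 to 0.20, limma adjusted p = 0.817) and 0.014 (-0.22 to 0.25, adjusted p = 0.951). The second turned to -0.011 after median centring. In linear terms these intervals ran from -18.9% to 15.0% and from -14.1% to 18.6%. The highest value of any probe set was 14.38 on both the day 4 and the day 0 arrays.

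**Figure D2:**
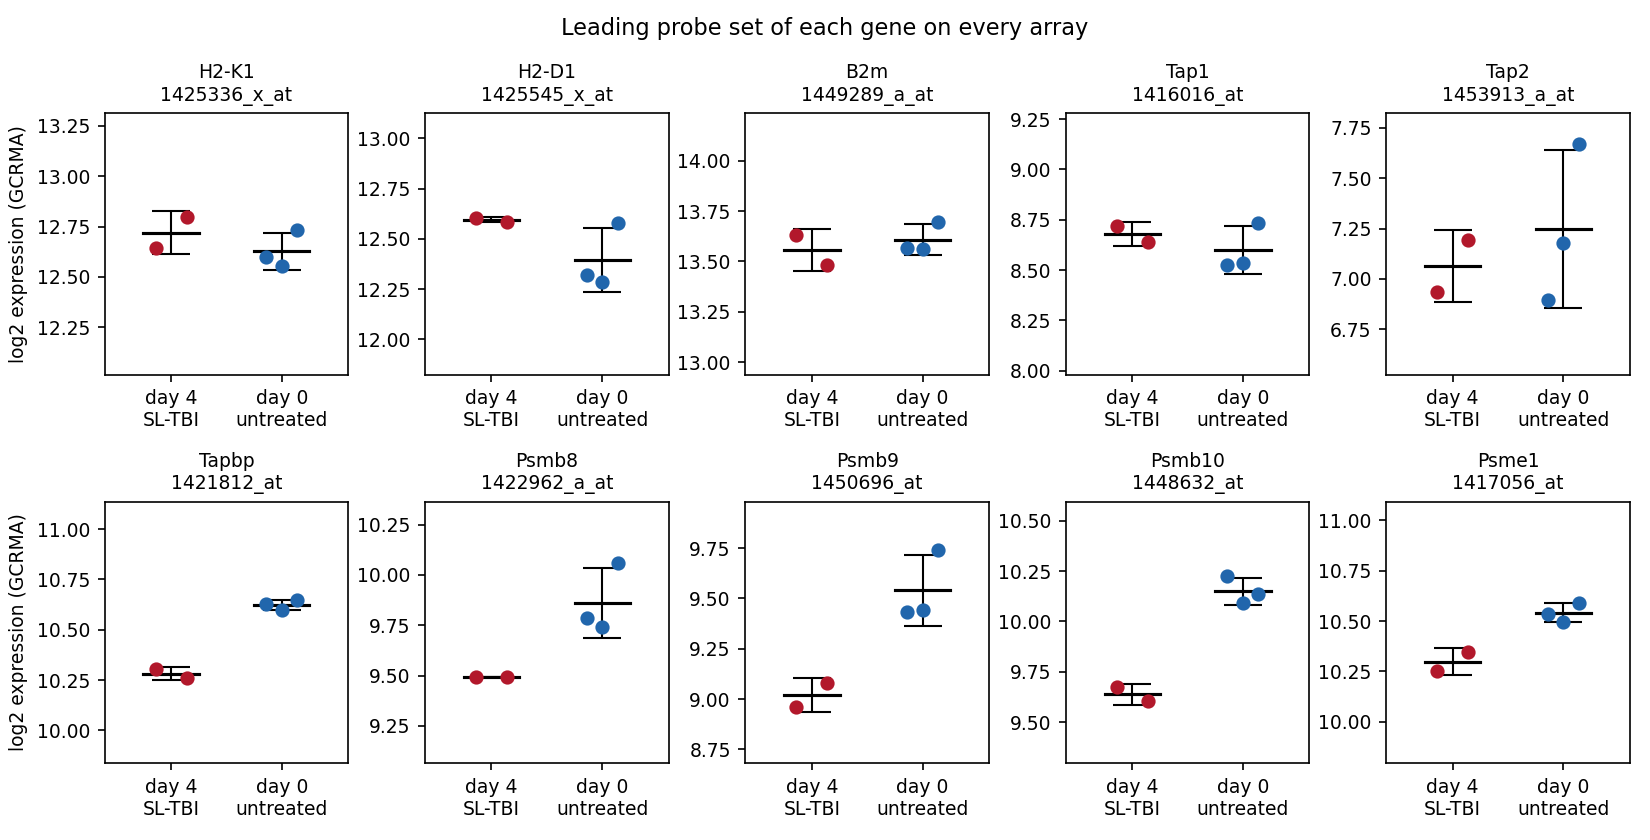
Log2 value of the leading 1-symbol probe set of each of the 10 genes on every array, each point 1 array, each line a group mean and each bar its SD, with day 4 left of day 0. For Psmb8, Psmb9, Psmb10, Psme1 and Tapbp both day 4 points lie below the 3 day 0 points, and for H2-D1 both lie above them.

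Tap1 and Tap2 encode the partner chains of the peptide transporter. Tap1 (1416016_at) read 8.72 and 8.64 at day 4, against 8.52, 8.54 and 8.74 at day 0. The groups overlapped, with a log2 change of 0.081 ± 0.109 (95% interval -0.19 to 0.35; limma adjusted p = 0.713). It ranged from 0.040 to 0.15 with single arrays left out. Its dimmer probe set 1448177_at read 4.16 and 4.30 at day 4, against 4.04, 3.77 and 4.07 at day 0, without overlap (log2 change 0.27, adjusted p = 0.313). Another 2 Tap1 probe sets, 1420274_at and 1449803_x_at, stayed at means of 1.90 to 2.10 in both groups, under the filter. Tap2 (1453913_a_at) read 6.94 and 7.19 at day 4, against 6.89, 7.18 and 7.67 at day 0. Day 0 replicate 3 stood above the other 4 arrays, and the log2 change was -0.18 ± 0.232 with all arrays (95% interval -0.75 to 0.38; adjusted p = 0.693) and 0.027 without that array.

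Tapbp encodes tapasin, the chaperone that links TAP to class I molecules and favours tightly binding peptides. Its leading probe set (1421812_at) read 10.30 and 10.26 at day 4, against 10.63, 10.60 and 10.65 at day 0. The groups were separate, and the gap between them was wider than the spread within either. The log2 change was -0.34 ± 0.089 (95% interval -0.56 to -0.13), or -21.1% in linear terms, and did not pass over all probe sets (limma adjusted p = 0.127). The dimmer probe set 1450378_at read 6.11 and 6.17 at day 4, against 6.37, 6.26 and 6.39 at day 0. It pointed the same way, with a log2 change of -0.20 (95% interval -0.43 to 0.039; adjusted p = 0.320).

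Psmb10, Psmb9 and Psmb8 encode the catalytic subunits of the immunoproteasome, known as beta2i, beta1i and beta5i. Psmb10 (1448632_at) read 9.68 and 9.60 at day 4, against 10.22, 10.09 and 10.14 at day 0. Its values did not overlap, and its log2 change of -0.51 ± 0.096 (95% interval -0.74 to -0.28), or -29.8% in linear terms, was not called at an adjusted p of 0.0705 in limma. It passed in the limma fit with 1 probe set per gene (adjusted p = 0.0491) and in that with an intensity trend and robust fitting (adjusted p = 0.0345). With array weights its adjusted p was 0.141, and it lay between 0.0952 and 0.195 when single arrays were left out.

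Psmb9 (1450696_at) read 8.96 and 9.08 at day 4, against 9.43, 9.44 and 9.74 at day 0, with no overlap. Its log2 change was -0.52 ± 0.130 (95% interval -0.84 to -0.20), or -30.3% in linear terms, with a limma adjusted p of 0.120. Tap1, whose promoter window overlaps that of Psmb9, had a log2 change of 0.081, and the difference between these changes was not tested. Psmb8 (1422962_a_at) read 9.49 and 9.50 at day 4, against 9.78, 9.74 and 10.06 at day 0. Here too the groups were separate, with a log2 change of -0.37 ± 0.125 (95% interval -0.67 to -0.061; adjusted p = 0.195). Day 0 replicate 3 was the highest array for both genes, and without it the changes were -0.42 for Psmb9 and -0.27 for Psmb8.

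Psme1 encodes the alpha subunit of the 11S activator PA28, which caps the proteasome and opens it to peptides. It read 10.25 and 10.35 at day 4, against 10.53, 10.50 and 10.59 at day 0. The groups did not overlap, and the log2 change was -0.24 ± 0.094 (95% interval -0.47 to -0.013; limma adjusted p = 0.236). Probe set 1417189_at, annotated to Psme2b and to Psme2, the gene of the partner subunit PA28 beta, read 10.12 and 10.04 at day 4, against 10.31, 10.36 and 10.56 at day 0. Its log2 change of -0.33 (adjusted p = 0.198) had the same sign. No probe set listed Psme2 alone, so it is not analysed here as a gene.

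Each immunoproteasome subunit takes the place of a standard one in newly built core particles, Psmb8 that of Psmb5, Psmb9 that of Psmb6 and Psmb10 that of Psmb7. The standard subunits had log2 changes of -0.073 for Psmb5, -0.15 for Psmb6 and -0.0091 for Psmb7, none of them called in limma (adjusted p between 0.414 and 0.970). To see whether partners moved unequally, their log2 difference was taken within each array. Set to the day 0 mean, the Psmb10 minus Psmb7 difference came to -0.45 and -0.55 at day 4, against 0.18, -0.090 and -0.086 at day 0. The Psmb9 minus Psmb6 difference came to -0.41 and -0.32 at day 4, against -0.18, -0.060 and 0.24 at day 0. The Psmb8 minus Psmb5 difference came to -0.29 and -0.30 at day 4, against -0.088, -0.024 and 0.11 at day 0.

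Both day 4 arrays lay below all day 0 arrays in each of the 3 pairs, and the differences of changes were -0.50, -0.37 and -0.29. By the same rule 20.7% of single probe sets tested were lower, and no share over other pairs is given here. Psmb10, Psmb9 and Psmb8 were already separate on their own, so the pairs are not independent readings. The exact permutation test over the 10 splits of 5 arrays gave a two-sided p of 0.2 for each pair and 0.2 after adjustment over 3 pairs. This is the smallest value that this two-sided form of the test can give over 10 splits, so the test could not reach 0.05. The direction of the Psmb10, Psmb9, Psmb8, Psme1 and Tapbp changes was the same under every alternative run.

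**Figure D3:**
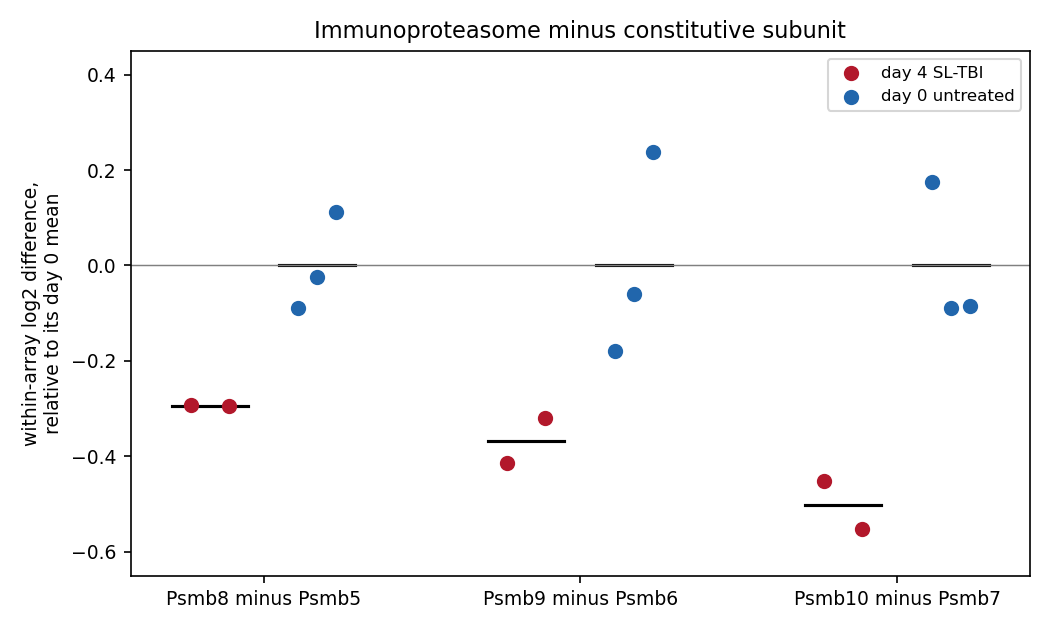
Within-array log2 difference between each immunoproteasome subunit and the standard subunit it replaces, set to the day 0 mean of the pair, with 1 point per array, a line at each group mean and day 4 left of day 0. In each of the 3 pairs both day 4 points lie below the 3 day 0 points.

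Markers of cells other than endothelial cells also differed between the groups. The mean log2 level of thymocyte markers stood at 4.02 and 3.94 at day 4, against 5.95, 5.22 and 5.73 at day 0, and 6 of 14 tested probe sets fell (limma; Ccr9, Cd8b1, Dntt, Rag1 and Satb1), with Rag2 and Ptcra under the filter. All 14 were lower, with a median log2 change of -1.86, and 11 of them had an unadjusted p under 0.05. Only 14 of the 20 thymocyte probe sets passed the filter, which the day 0 arrays alone could satisfy. A probe set under the filter at day 4 could enter only through higher day 0 values. The count of lower ones can therefore be partly set by the filter. The mean log2 level of macrophage and monocyte markers stood at 7.86 and 7.63 at day 4, against 6.55, 5.57 and 5.82 at day 0. Of their 18 probe sets, 3 rose (Cd14, Cd163 and Fcgr1). All 18 were higher, with a median log2 change of 1.44, and 17 of them had an unadjusted p under 0.05 and no overlap between the groups. Of the dendritic cell markers, 0 of 11 were called in limma, 1 was higher and 4 were lower at an unadjusted p under 0.05, and Flt3, Xcr1 and Cd209a stayed under the filter. Their mean level stood at 5.62 and 5.47 at day 4, against 6.01, 5.68 and 5.88 at day 0. Of thymic epithelial markers, 0 of 16 were called and 6 were lower at an unadjusted p under 0.05, with levels of 6.62 and 5.86 at day 4, against 7.29, 6.70 and 6.76 at day 0, and with Foxn1 under the filter. Endothelial markers had 10.39 and 10.67 at day 4, against 10.55, 10.56 and 10.71 at day 0, with 0 of 19 called and 1 lower at an unadjusted p under 0.05. Of other lists, 2 of 2 tested B cell probe sets (Cd79b and Ms4a1), 2 of 3 for neutrophils (S100a8 and S100a9) and the erythroid Alas2 fell. Under the filter stayed Cd79a, Blk and Pax5 for B cells and Ngp, Ltf, Elane and Mpo for neutrophils. So did the erythroid Hba-a1, Klf1 and Slc4a1. Mean levels of these lists were 3.10 to 3.49 at day 4 and 3.86 to 4.33 at day 0. They lay near the filter, so the direction of these falls can be partly set by it. Fibroblast markers gave 0 of 13 and those of pericytes and smooth muscle 0 of 14, with 1 higher and 2 lower among the fibroblast ones and 1 lower among the others at an unadjusted p under 0.05. The part of these cells in the lower values of the immunoproteasome subunits, Psme1 and Tapbp and in the higher values of H2-D1 was not tested.

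Day 0 replicate 3 stood apart for these genes. It was the highest of the 3 day 0 arrays on 23 of the 25 probe sets, and on 13 of the 14 of the heavy chains, while over all probe sets tested it was the highest for 33.8%. Its median distance above the day 0 mean was 0.11 over the 25 probe sets. The median log2 change of the 25 was 0.051 without this array.

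The rest of the pathway was described from lists of genes with their own probe sets, and the share called over all probe sets is given above. Of 14 probe sets for other class I and class I-like heavy chains, 1 rose and 0 fell. The gene that rose was Procr, the endothelial protein C receptor, which has a class I-like fold and acts in anticoagulation. It read 10.04 and 9.95 at day 4, against 8.99, 9.28 and 8.99 at day 0 (log2 change 0.91 ± 0.125, limma adjusted p = 0.0363). It was not called with array weights (adjusted p = 0.109), nor without day 4 replicate 1 (0.148), day 4 replicate 2 (0.0658), day 0 replicate 1 (0.0939) or day 0 replicate 3 (0.136). The median log2 change of the list was -0.14, and 12 of the 14 were lower.

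Of 34 probe sets for class I assembly and peptide trimming, 0 were called in limma, 27 were higher at day 4 and 7 lower, the median log2 change was 0.14, and 6 were higher and 2 lower at an unadjusted p under 0.05. Their changes ran from -0.36 to 0.93, and the lowest adjusted p was 0.130. The list holds chaperones of the endoplasmic reticulum and the peptidases that trim class I peptides.

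The other subunits of the 20S core, which form the barrel around the catalytic sites, were mostly lower. Of 19 probe sets for 11 genes, 0 were called in limma (lowest adjusted p 0.182), 18 were lower, and 6 were lower at an unadjusted p under 0.05, beside 9.34% of all probe sets tested. For 17 of them both day 4 arrays lay below all day 0 arrays, beside 20.7% of all. Their median log2 change was -0.23, and the range was -0.33 to 0.0016, so the values for Psmb10, Psmb9 and Psmb8 lay below that range. In contrast, the 33 probe sets of the 19S regulatory particle, which unfolds tagged proteins, had a median of -0.00071, with 16 higher, 17 lower, 0 called and 0 at an unadjusted p under 0.05. The 13 probe sets of other activators, inhibitors and assembly factors had a median of -0.10, with 0 called and 0 at an unadjusted p under 0.05. Of these 13, 11 were lower and 2 higher, with changes from -0.37 to 0.091. Both day 4 arrays lay below all day 0 arrays for 6 of them, beside 20.7% of all, and above them for 0.

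Genes of interferon-gamma signalling and class I transcription gave 23 tested probe sets, of which 0 were called in limma, 5 were higher and 2 lower at an unadjusted p under 0.05, and the median log2 change was 0.15. Irf1, a transcription factor that interferon-gamma induces and that binds class I and immunoproteasome promoters, read 12.07 and 11.62 at day 4, against 11.64, 11.59 and 11.71 at day 0. Only day 4 replicate 1 stood above the day 0 arrays, and the log2 change was 0.19 ± 0.150 with both arrays (adjusted p = 0.509) and -0.030 without day 4 replicate 1. Nlrc5, the class I transactivator, had no probe set of its own and is not analysed here, nor is Psmb11, the thymus-specific proteasome subunit.

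The guanylate-binding proteins and immunity-related GTPases, a family strongly induced by interferons, gave 13 tested probe sets with 0 called in limma, 1 higher and 1 lower at an unadjusted p under 0.05, and a median log2 change of 0.24. Their mean level stood at 9.60 and 8.98 at day 4, against 9.08, 9.13 and 9.24 at day 0, so that the day 4 arrays lay on both sides of the day 0 arrays. A further 10 tested probe sets listed pathway genes together with other symbols. Their lowest limma adjusted p was 0.198, 6 were higher and 4 lower, and the median log2 change was 0.028.

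**Figure D4:**
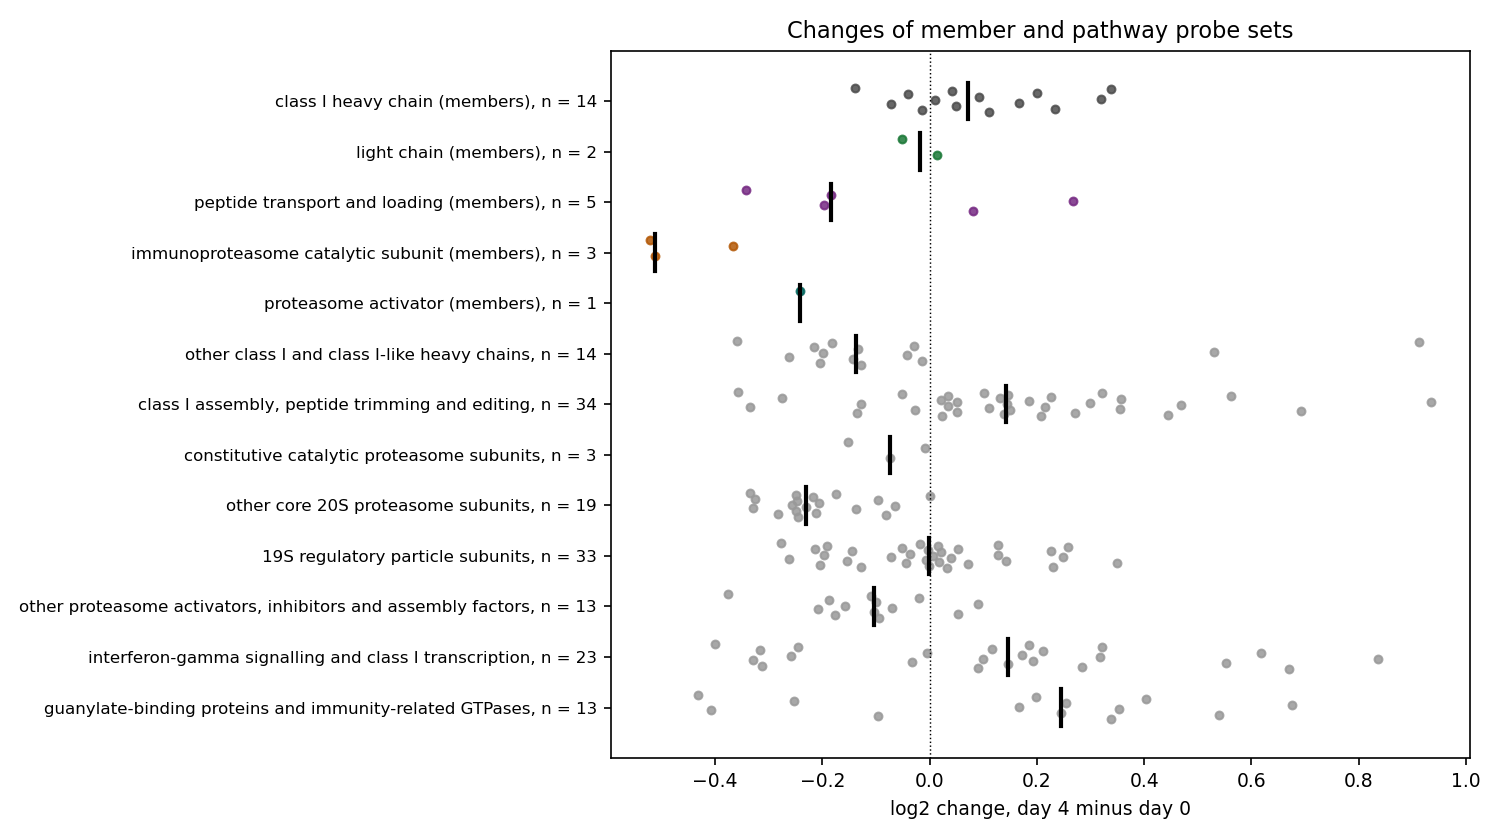
Log2 change, day 4 minus day 0, of every tested probe set of the class I and immunoproteasome genes by role and of the pathway lists, 1 point per probe set, with the list median as a line. The 3 immunoproteasome subunits have the lowest median, with values of -0.52 to -0.37, the other 20S core subunits have a median of -0.23, and the 19S subunits are spread around 0.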

How the data were processed

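The authors deposited log2 expression values of a single-colour Affymetrix mouse array, made with GCRMA per the submitters' processing notes. As a method, GCRMA corrects background by probe composition and quantile-normalizes the arrays it is given, and it can pull dim values towards the background level. Whether the 5 arrays were processed together is not given in the sources used here, and no depth applies to arrays, whose number limits the precision. Symbols came from the platform annotation.

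Each non-control probe set with a log2 value above 4 on at least 2 arrays was tested as 1 feature with limma 3.58.1 in R 4.3.3 (lmFit and eBayes, two-sided, day 4 minus day 0, residual degrees of freedom 3). P-values were adjusted by Benjamini-Hochberg over all 15065. Standard errors and 95% intervals are limma's moderated ones. The fit was also run on simulated data, with independent noise and shifts larger than any member change, so that run does not bear on the changes given here. Subunit pairs were compared by an exact permutation test (scipy 1.17.1). A leading probe set is the one with 1 symbol and the highest mean.

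Every member is named. Of the called genes in a pathway list, up to 2 that rose most and up to 2 that fell most are named. Named whatever their values are Psmb5, Psmb6, Psmb7, Psme2, Psmb11, Nlrc5 and Irf1 and the sort genes Cdh5, Pecam1, Ptprc and Epcam, and 1 further gene of this rule is not reported here. The members and lists were chosen with earlier results of these data known. Alternatives were other scalings, filters, thresholds and limma settings, 1 probe set per gene, the replicate number as a block and each array left out.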

Additional observations from a re-analysis of the deposited data

How the results depend on the processing

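Of 305 values of member probe sets under the alternatives, 21 turned sign, in 8 probe sets whose log2 changes had a size of 0.18 or less; the cause was not tested. The 210 called probe sets became 53 with array weights, and 14 to 178 when single arrays were left out. No member was called in limma, and 1, Psmb10, was called with an intensity trend and robust fitting, with 1 probe set per gene, and at an adjusted p under 0.1, while the count was 0 for each array left out. The median log2 change of members was -0.21 with 1 probe set per gene, where fewer heavy chain probe sets enter, and -0.0097 to 0.051 with single arrays left out. Whether the replicate numbers mark pairs could not be told. Deviations of same-numbered arrays from their group means correlated at 0.196 and 0.084. With 2 day 4 arrays, the deviations of 1 mirror those of the other, so these values are not independent and cannot decide it. With the replicate block the call count was 401, Procr had an adjusted p of 0.0518, and 1451593_at (0.025), Tap2 (0.027) and Psmb7 (0.026) turned sign. Array weights turned 1451593_at to 0.0069. Median centring turned 1427651_x_at to -0.016, 1452428_a_at of B2m to -0.011 and Ptprc to -0.020, and quantile normalization gave -0.00019 for 1427651_x_at and -0.015 for Ptprc. With single arrays left out, H2-D1 probe sets ranged from -0.019 to 0.14 (1450170_x_at), -0.064 to 0.099 (1427651_x_at) and -0.083 to 0.014 (1422348_at), and H2-K1 ones from -0.021 to 0.12 (1427746_x_at) and -0.071 to 0.044 (1451593_at). B2m ranged from -0.12 to 0.023 (1449289_a_at) and -0.023 to 0.051 (1452428_a_at), Tap2 from -0.36 to 0.027, Psmb7 from -0.060 to 0.026, Irf1 from -0.030 to 0.42, Pecam1 from -0.051 to 0.33, Ptprc from -0.22 to 0.17 and Epcam from -1.23 to 0.27. The pair differences ranged from -0.34 to -0.24 for Psmb8 and Psmb5, -0.46 to -0.25 for Psmb9 and Psmb6 and -0.55 to -0.41 for Psmb10 and Psmb7. With 2 against 3 arrays, the median SE of a member was 0.121 (0.123 over all probe sets tested), which limits what could be called.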
